A study of Mus musculus with 7 samples.

Results

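The probes described here lie in the stretch of mouse chromosome 1 to which the SHIVA mutation had been mapped and that had then been resequenced, from position 1 to 24071946 in the mm9 assembly. Members were chosen by position alone: 165 of the 55681 non-control probes on the array, carrying 135 gene or transcript names. The 2 Sox17 probes and 53 probes named only by intergenic coordinates were left out. Livers came from female C57BL/6 mice 8 to 12 weeks old that had fasted for 24 h. The 3 WT mice were wild type and the 4 SHIVA mice carried the Sox17 mutation, a heterozygous missense change in the HMG domain that arose by chemical (ENU) mutagenesis. The SHIVA mice come from a single mutant line kept by repeated crossing to C57BL/6. The authors report that their sequencing of this end of the chromosome excluded other mutations, and sequence differences are not analysed here. Each mouse had a single-colour Agilent array of its own. All 7 arrays lay on 1 slide, with WT in row 1 and SHIVA in row 2, so that place on the slide and genotype cannot be told apart.

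A mutation found by linkage is carried on a block of chromosome, and genes close to it travel with it through crosses. Expression of such neighbours is therefore often read beside that of the mutated gene. Sox17 encodes an HMG-box transcription factor of the SoxF family that is required for definitive endoderm and is active in endothelium and in the biliary tree. The genes around it are a mixed set, ranging from glutathione conjugation and mitochondrial enzymes to nerve, germ-cell and immune genes.

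A probe is a 60-base oligonucleotide, and its signal is given as the log2 of the background-subtracted spot intensity after quantile normalization. The last 30 bases (positions 31 to 60) of 4 member probes are printed because the results turn on them: the neighbouring pair with the largest differences between genotypes, and the 2 repeat-bearing members whose genotypes did not overlap. Capitals mark the perfect repeat, and lower case all other bases, read 5′ to 3′ as in the deposited annotation.
Tcf24, listed as Gm2330, chr1:9953498-9953557 (minus strand): gcaagccatagcaacacttcaacggcctca
ENSMUST00000097824, chr1:9951005-9951064 (minus strand): actgtcaaacgttctttaaagttaccttaa
LOC100046279, chr1:16486656-16486715 (plus strand): agaccatTGCTGCTGCTGCTGCTGCTGCTG
Eya1, chr1:14159982-14160041 (minus strand): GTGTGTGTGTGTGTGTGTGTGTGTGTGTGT

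Of the 165 probes, 90 were tested, having a signal well above background on 3 or more arrays (54.5%, 95% exact binomial interval 46.6 to 62.3). They stood for 73 names. A further 68 probes were well above background on no array and 7 on 1 or 2 arrays. The share tested was 54.8% on the rest of chromosome 1 and 55.3% on the other chromosomes. These 2 sets also leave out probes with intergenic names, and probes with no position are in neither. Over all non-control probes, those included, the share was 47.2%. Shares given below as over the array include them too. The interval held more probes for predicted genes and pseudogenes, 25.5%, than the rest of chromosome 1 (16.1%) or the other chromosomes (15.8%). Among the members never above background were the potassium channels Kcnb2 and Kcnq5, the opioid receptor Oprk1 and the germ-cell regulator Prdm14. So were the interleukins Il17a and Il17f and the beta-defensins Defb18 and Defb41.

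No member was called between SHIVA and WT livers by limma at an adjusted p under 0.05, against 61 of the 26270 probes tested across the array (0.232%), of which 28 were higher in SHIVA (0.107%) and 33 lower (0.126%). At an unadjusted p under 0.05 there were 12 members, 13.3% of those tested, beside 13% over the array. The 12 split into 7 higher (6.85% over the array) and 5 lower (6.14%). At the same unadjusted threshold the methods' t-test gave 8, with 0 after adjustment among the members and 0 over the whole array. With WT mouse 3 left out limma called 3 members and 564 probes in all (2.18%). These 3 were the Tcf24, ENSMUST00000097824 and LOC100046279 probes.

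The members as a group lay close to 0. The median log2 difference (SHIVA minus WT) was -0.01 with quartiles of -0.18 and 0.18, and 44 members were higher and 46 lower. On the rest of chromosome 1 the median was 0.01 over 1120 probes, and on the other chromosomes -0.01 over 20460. Values of the genotypes did not overlap for 11 members (12.2%), 6 higher in SHIVA and 5 lower, beside 12% over the array (5.85% higher and 6.15% lower). A difference of 1 or more in size was found for 2 members (2.22%), beside 3.03% over the array.

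**Figure D1:**
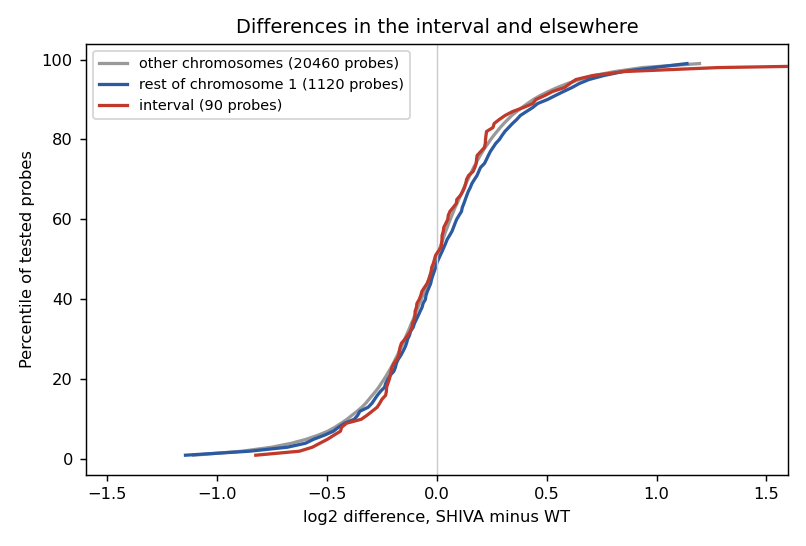
Percentiles (vertical axis) of the log2 difference between SHIVA and WT mice (horizontal axis) for the 90 tested interval probes, 1120 on the rest of chromosome 1 and 20460 on the other chromosomes. The 3 curves run together, with medians of -0.01, 0.01 and -0.01 in that order, and the interval's curve leaves the axis at its top end, where 2 probes exceed a difference of 2 (2.31 and 2.89).

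By mouse, the median member deviated from its own mean over the arrays by between -0.10 (WT mouse 3) and 0.15 (WT mouse 1), with the 4 SHIVA mice from -0.05 to 0.07. Probes of the other chromosomes and the rest of chromosome 1 deviated by at most 0.02 in any mouse. Quantile normalization holds the median over so many probes near 0, so these values do not show whether the members varied unusually. Within 5 megabases (Mb) of Sox17 the median difference over 17 tested members was 0.09, and beyond that distance it was -0.01 over 73. An unadjusted p under 0.05 was found for 0 of the 17 near members and 12 of the 73 others (16.4%), beside 13% over the array, and a difference between near and far members was not tested.

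Sox17 itself was dim. Its probe starting at 4481503 read 4.52, 3.41 and 3.92 in the WT mice and 4.62, 4.46, 4.76 and 4.70 in the SHIVA mice. The difference was 0.69 (SE 0.25, adjusted p = 0.292, limma), and WT mouse 1 lay among the SHIVA values. The other probe, starting at 4481038, differed by 0.31 (SE 0.17, adjusted p = 0.501, limma). Both differences depended on the processing. Over the other settings the first ran from 0.094 to 0.971 and the second from 0.0579 to 0.499, with 0 called. The lowest value of each came with normexp background correction. A point mutation need not change the signal of either probe, so these values do not check the labels.

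The tested names nearest to Sox17 were all on its far side from the chromosome end, since no member between it and the end was tested. They were Gm7357, Mrpl15 (a mitochondrial ribosomal protein), Lypla1 (a thioesterase that removes palmitate from proteins), Tcea1 (a transcription elongation factor) and Rgs20 (a regulator of G-protein signalling). Their differences at the probe with the higher signal ran from -0.17 for Tcea1 to 0.32 for Gm7357, and none exceeded its own SE. The other Lypla1 probe read 8.43, 8.11 and 8.11 in WT and 7.94, 8.08, 7.93 and 7.99 in SHIVA livers. All 4 SHIVA values were below the WT values, with a difference of -0.23 (SE 0.15, adjusted p = 0.559, limma).

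**Figure D2:**
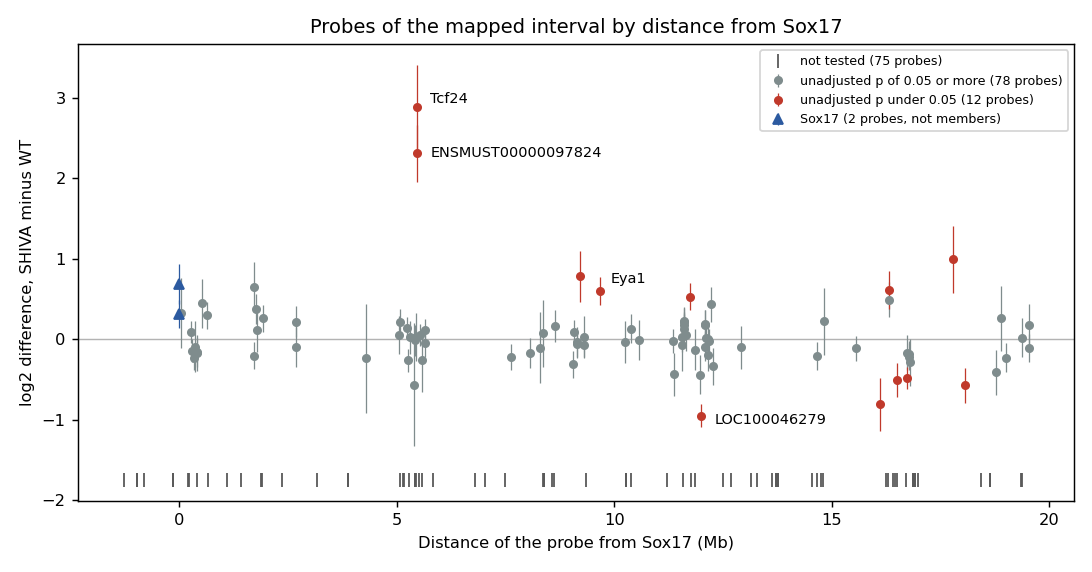
The log2 difference between SHIVA and WT mice (vertical axis, bars ± SE) of the 90 tested member probes against distance from Sox17 in Mb (megabases). Ticks below mark the 75 members not tested and triangles the 2 Sox17 probes, which differed by 0.31 and 0.69. The pair with the largest differences lies about 5.47 Mb from Sox17, and the 12 members with an unadjusted p under 0.05 all lie beyond 5 Mb.

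The 2 largest differences came from neighbouring probes on the minus strand, 2433 bases apart. ENSMUST00000097824, an Ensembl transcript annotated only as an uncharacterized protein, read 3.82, 2.92 and 4.64 in the WT mice and 6.39, 6.09, 5.88 and 6.05 in the SHIVA mice. Every SHIVA value was above every WT value, and it was well above background in 1 of 3 WT and 4 of 4 SHIVA mice. WT livers averaged 3.79 ± 0.86 (SD, n = 3) and SHIVA livers 6.10 ± 0.21 (SD, n = 4). The difference was 2.31 (SE 0.36, adjusted p = 0.0519, limma), which narrowly missed the threshold. With normexp background correction it was smaller, at 0.74, but under the threshold (adjusted p = 0.0243, limma). The probe was called in 7 of 19 other settings.

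The Tcf24 probe read 1.31 and 3.13 in WT mice 2 and 3, in neither of them well above background, and 5.47, 4.94, 5.60 and 4.45 in the SHIVA mice. Tcf24 encodes a basic helix-loop-helix transcription factor. The spot of WT mouse 1 had been marked as non-uniform by the scanner software and was left out of the fit, so that n = 2 for WT. The fitted difference was 2.89 (SE 0.52, adjusted p = 0.0944, limma). With that spot left out the probe was well above background in 0 WT and 4 SHIVA mice. It was thus tested through the SHIVA arrays alone. Against the higher of each WT mouse's own reading and its array's lowest signal well above background, SHIVA livers were 5.42-fold higher. WT mouse 1 had no reading and was set to that lowest signal, so the fold is not a lower bound. The spot that was left out read 7.94, higher than in any SHIVA mouse and well above background. With it kept, the WT mean was 4.13 ± 3.42 (SD, n = 3), the difference 0.99 and the adjusted p = 0.8 (limma). The Tcf24 value therefore rested on that exclusion, and no other member lacked a value in any mouse.

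The other members from Sgk3 to Cops5, which flank this pair, gave no such difference. Of these 8 probes, 4 were tested, and they differed by between -0.56 and 0.06. Cops5, a subunit of the COP9 signalosome, read from 11.20 to 11.48 in the WT mice and from 11.33 to 11.37 in the SHIVA mice. Snhg6, a small nucleolar RNA host gene, differed by 0.02 (SE 0.30). The -0.56 belonged to a dim probe for the kinase Sgk3, which read 5.47, 5.57 and 5.18 in SHIVA mice 1 to 3 and 2.12 in SHIVA mouse 4. The second Sgk3 probe differed by -0.01 (SE 0.19).

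LOC100046279, a predicted protein-coding locus, had the largest difference among the tested members that were lower in SHIVA livers. It read 11.85, 11.78 and 11.82 in the WT mice and 10.94, 10.83, 11.04 and 10.65 in the SHIVA mice. All SHIVA values were below all WT values, with means of 11.82 ± 0.04 (SD, n = 3) and 10.87 ± 0.17 (SD, n = 4). The difference was -0.95 (SE 0.15, adjusted p = 0.0525, limma).

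**Figure D3:**
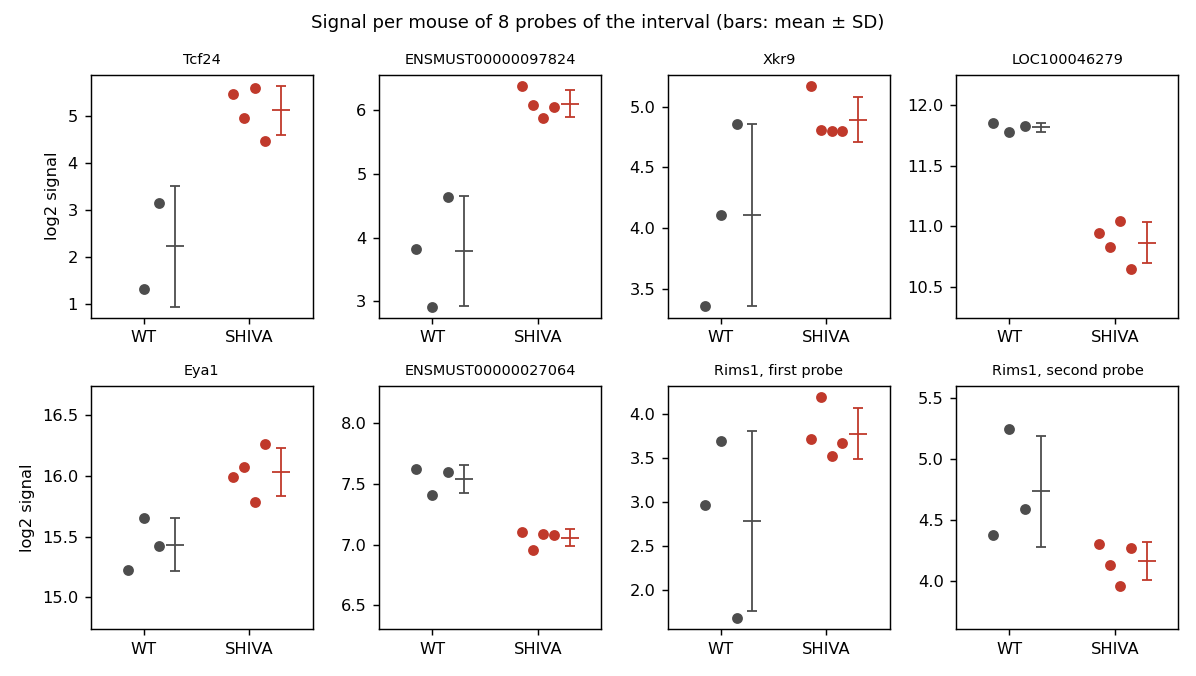
Log2 signal (vertical axes, each with its own range) of 8 member probes in the WT and SHIVA mice, 1 point per mouse, with the mean ± SD beside the points. SHIVA values lie above WT for Tcf24 (1 WT spot left out, which read 7.94), ENSMUST00000097824 and Eya1, and below WT for LOC100046279 and ENSMUST00000027064. The 2 Rims1 probes differ in opposite directions, by 0.99 and -0.57.

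The LOC100046279 probe ends in 23 bases of a perfect repeat of the unit CTG, and the Eya1 probe in 34 bases of a repeat of GT. Repeats of a unit of up to 3 bases that were 15 or more bases long occurred in 4 members (2.42%), in 0.538% of probes on the rest of chromosome 1 and in 0.652% on the other chromosomes. The other 2 members were Gm2393 (unit AAG) and Rgs20 (unit CT). Repeats were found on the strand of the probe as printed, in any phase of the unit. Probes with the same unit elsewhere give a measure of what such a sequence read in these mice.

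Eya1, a transcriptional co-activator and phosphatase, read 15.22, 15.65 and 15.42 in the WT mice and 15.99, 16.08, 15.78 and 16.26 in the SHIVA mice. The SHIVA values were all higher, by 0.60 (SE 0.17, adjusted p = 0.224, limma). The array holds 79 probes with a GT repeat, Eya1 included, all of them tested. All 79 were higher in SHIVA livers, with a median difference of 0.65 beside -0.01 for all probes tested, and 77 had an unadjusted p under 0.05. None was called at an adjusted p under 0.05. Their median signal was 14.48, 14.96 and 14.66 in the WT mice and 15.32, 15.35, 15.09 and 15.47 in the SHIVA mice, so that the genotypes did not overlap. All 79 were higher under each of 18 other settings of the analysis, with medians from 0.52 to 0.76. Settings that changed only the filter, the probes kept per name or the test could not change these differences. The probes share much of their sequence and are not independent, and the part of the repeat in the Eya1 value was not tested.

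The 6 probes with a CTG repeat, LOC100046279 included, were all lower in SHIVA livers, with a median of -0.75. Their median signal was 11.98, 11.88 and 11.99 in the WT mice and 11.13, 11.01, 11.23 and 10.69 in the SHIVA mice. All 6 had an unadjusted p under 0.05. Names of other probes that share 20 bases with LOC100046279 included Crebbp, Med1 and Trp63. The part of the repeat in the LOC100046279 value was not tested.

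The remaining repeats gave smaller or mixed differences. Of 50 tested probes with an AAG repeat, 39 were higher and 11 lower (median 0.12), and without WT mouse 1 only 1 was higher and 49 were lower. Gm2393 itself read from 13.96 to 15.17 in WT and from 13.61 to 15.37 in SHIVA mice, a difference of -0.10 (SE 0.44). All 11 probes with a CT repeat were lower, by a median of -0.11, and without WT mouse 2 the count was 8. Rgs20 differed by -0.16 (SE 0.18).

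**Figure D4:**
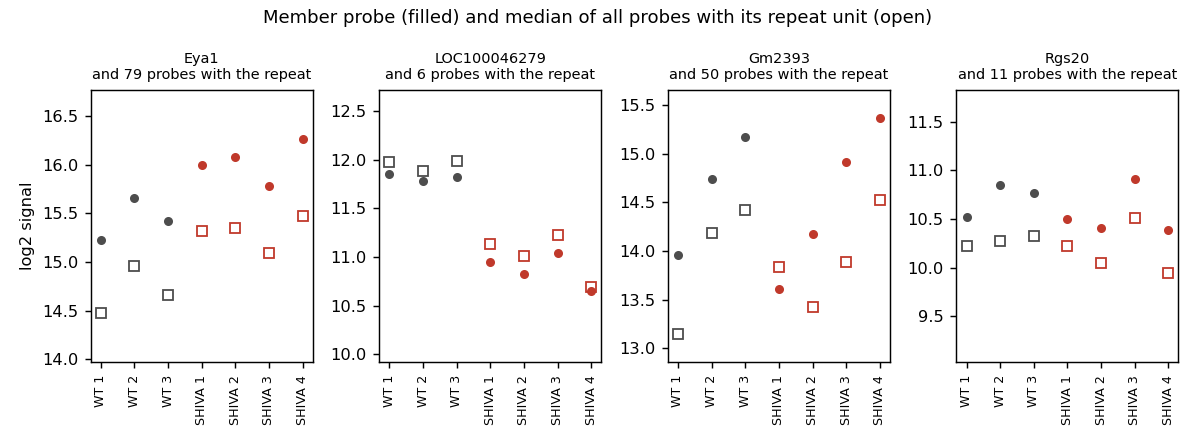
Log2 signal (vertical axes) of each mouse for the 4 members with a tandem repeat (filled circles) and the median over all tested probes that hold the same repeat unit (open squares). For Eya1 and its 79 probes all 4 SHIVA mice lie above the 3 WT mice, for LOC100046279 and its 6 probes they lie below, and for Gm2393 and Rgs20 the genotypes overlap.

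Transcription and DNA genes had 14 probes for 13 names. With Tcf24 and Eya1 included 8 were tested, 5 higher and 3 lower, with a median of 0.08 and 0 called. Mcm3, a subunit of the replicative helicase, read 6.06, 6.16 and 6.16 in WT and 6.60, 7.13, 6.56 and 6.18 in SHIVA livers. SHIVA values were all higher, although SHIVA mouse 4 was close to WT, and the difference was 0.49 (SE 0.22, adjusted p = 0.393, limma). The probe of the predicted locus LOC100045677, which is annotated as similar to Mcm3 and shares 20 or more bases with its probe, differed by 0.61 (SE 0.24, adjusted p = 0.326, limma). These 2 probes cannot be counted as separate genes. Eloc, the elongin C subunit, differed by -0.20 and 0.00 at its 2 probes.

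Genes of the ribosome and RNA handling had 8 probes for 4 names, all tested, 7 higher and 1 lower with a median of 0.15 and 0 called. Rpl7, a protein of the large ribosomal subunit, was higher at all 4 of its probes by 0.13 to 0.23, and at each the genotypes overlapped. The probe with the highest Rpl7 signal read 14.19, 13.71 and 13.63 in WT and 13.91, 14.25, 13.87 and 13.87 in SHIVA livers. Stau2 encodes a double-stranded RNA binding protein. One of its probes read 3.80, 3.43 and 3.48 in the WT mice, in none of them well above background, and 3.94, 4.24, 3.96 and 4.25 in the SHIVA mice, in all of them well above it. It was tested through the SHIVA arrays alone, and its fitted difference was 0.53 (SE 0.16, adjusted p = 0.244, limma). The other differed by -0.13 (SE 0.26), and the transcript ENSMUST00000115359, annotated to Stau2, by -0.44 (SE 0.24).

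Mitochondrial genes had 9 probes for 7 names, of which 8 were tested, 2 higher and 6 lower with a median of -0.05 and 0 called. The largest difference was in Adhfe1, a hydroxyacid-oxoacid transhydrogenase, at 0.22 (SE 0.15), followed by Tmem14a at -0.17 (SE 0.22), the Mrpl15 probe with the higher signal at -0.14 (SE 0.14) and Sdhaf4, an assembly factor of succinate dehydrogenase, at -0.11 (SE 0.17). A second probe in Tmem14a, named by its transcript ENSMUST00000027064, read 7.62, 7.41 and 7.59 in WT and 7.10, 6.96, 7.09 and 7.08 in SHIVA livers. Here SHIVA values were all lower, by -0.48 (SE 0.14, adjusted p = 0.21, limma).

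Gsta3, a glutathione S-transferase of the alpha class that is abundant in liver, was the only member of the glutathione group. Its 2 probes read from 15.23 to 16.62 in WT and from 15.11 to 16.38 in SHIVA mice. They differed by -0.22 and -0.19 (SE 0.17 each), and the genotypes overlapped at both.

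Protein turnover and autophagy genes had 11 probes for 6 names, all tested, 7 higher and 4 lower, with a median of 0.11 and 0 called. Rb1cc1, the FIP200 subunit of the autophagy-starting kinase complex, differed by 0.37 and 0.11 (SE 0.19 and 0.27). Pcmtd1 differed by 0.22 and -0.10, and the ubiquitin-conjugating enzyme Ube2w by between -0.09 and 0.18 at 3 probes.

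Membrane traffic and lipid genes had 11 probes for 10 names, of which 7 were tested, 6 higher and 1 lower, with a median of 0.09 and 0 called. The lower one was Tram2, a translocon-associated membrane protein needed for collagen synthesis. It read 7.57, 8.22 and 7.59 in WT and 7.20, 7.16, 7.19 and 7.59 in SHIVA livers, with SHIVA mouse 4 among the WT values, a difference of -0.51 (SE 0.21, adjusted p = 0.351, limma). Atp6v1h, a subunit of the vacuolar proton pump, differed by 0.30 (SE 0.17), Fam135a by 0.18 (SE 0.26) and the exchange factor Arfgef1 by 0.12 (SE 0.13).

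Signalling and immune receptor genes had 12 probes for 10 names, and 5 were tested, 2 higher and 3 lower. Ly96, the MD-2 subunit that lets Toll-like receptor 4 bind endotoxin, read 6.96, 7.05 and 7.77 in WT and 7.63, 7.53, 7.84 and 7.76 in SHIVA livers. WT mouse 3 lay within the SHIVA range, and the difference was 0.43 (SE 0.22, adjusted p = 0.448, limma). Of the macrophage markers Clec4f, Adgre1, Cd5l, Cd68 and Marco, 5 of 5 were higher and 0 called, with a mean signal from 9.55 to 10.90 in WT and from 10.30 to 11.34 in SHIVA mice, and their part in the Ly96 value was not tested. In bulk liver, a change in the number of cells of a type and a change in RNA per cell cannot be told apart.

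Ion channel and synapse genes had 9 probes for 7 names, of which 3 were tested. Xkr9, a member of the XK-related family of membrane proteins, read 3.36, 4.11 and 4.86 in WT and 5.17, 4.81, 4.80 and 4.80 in SHIVA livers. WT mouse 3 lay among the SHIVA values, and the difference was 0.78 (SE 0.32, adjusted p = 0.342, limma). Rims1 encodes a scaffold of the presynaptic active zone. Its probe starting at 22278591 was higher in SHIVA livers by 0.99 (SE 0.42, adjusted p = 0.37, limma), and the one starting at 22545140 was lower by a difference of -0.57 (SE 0.22, adjusted p = 0.324, limma). The first was well above background in only 1 WT mouse.

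Cilium genes had 6 probes for 5 names, and the 2 tested were Pkhd1 at -0.11 (SE 0.15) and Cspp1 at -0.05 (SE 0.17). Pkhd1 encodes fibrocystin, a membrane protein of cholangiocyte cilia. Its probe read 6.76, 6.81 and 6.80 in WT and 6.47, 6.62, 6.91 and 6.70 in SHIVA livers. ENSMUST00000095072, annotated as a Pkhd1 transcript, read 4.33, 4.13 and 3.93 in WT and 4.22, 2.84, 3.34 and 2.86 in SHIVA livers, a difference of -0.81 (SE 0.33, adjusted p = 0.344, limma). SHIVA mouse 1 lay among the WT values. Of the 4 tested bile duct markers among Krt19, Krt7, Epcam, Sox9 and Spp1, 1 was higher and 3 lower with 0 called, and their part in this value was not tested. The secreted and matrix genes were represented by Sbspon at -0.44 (SE 0.27) and the sulfatase Sulf1 at 0.07 (SE 0.42). The 3 KH domain genes Khdc1a, Khdc1b and Khdc1c, known from oocytes, were never above background.

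The remaining 74 probes, for 64 names with no role given here, were mostly predicted loci, transcripts and pseudogenes. Of these 34 were tested, 12 higher and 22 lower with a median of -0.10 and 0 called. The predicted RNA 4732440D04Rik was well above background in 0 WT and 3 SHIVA mice, and was thus tested through the SHIVA arrays alone. It read 4.01, 3.10 and 3.54 in WT and 4.27, 4.72, 4.29 and 3.53 in SHIVA livers, with overlap, and its fitted difference was 0.65 (SE 0.31, adjusted p = 0.42, limma). ENSMUST00000119256, annotated to Rgs20, differed by 0.45 (SE 0.30).

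Of 14 names with more than 1 tested probe, the difference varied between probes by a median of 0.22, by under 0.25 for 8 names, by over 0.5 for 3 and by over 1 for 1 of those 3, Rims1. The spread between mice of 1 genotype was larger for dim probes. It was a median SD of 0.48 over the 25 members with a mean log2 signal under 6 and 0.22 over the 65 others. Of the 13 members that differed by 0.5 or more, 10 were among the 25 dim ones.

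**Figure D5:**
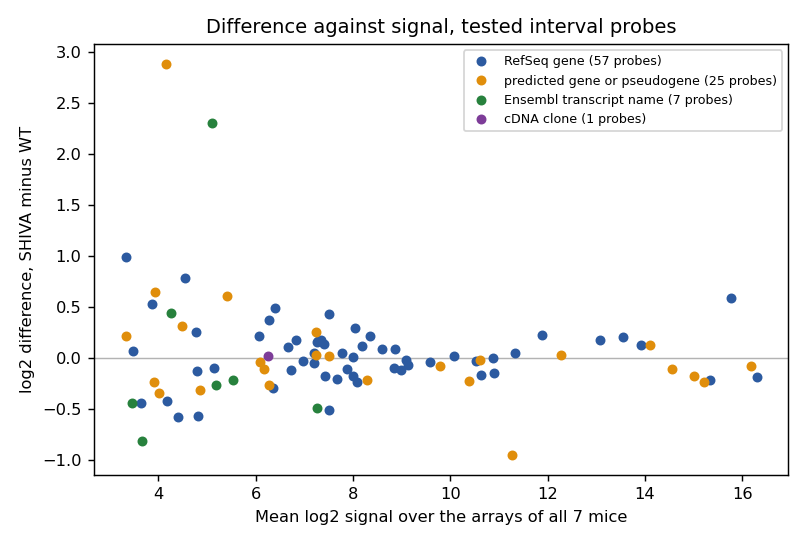
The log2 difference between SHIVA and WT mice (vertical axis) of the 90 tested members against their mean log2 signal (horizontal axis), coloured by kind of annotation: 57 RefSeq gene, 25 predicted gene or pseudogene, 7 Ensembl transcript and 1 cDNA clone probes. Most differences beyond 0.5 lie at a signal under 6, and the exceptions at higher signal are Eya1 (0.60), Tram2 (-0.51) and LOC100046279 (-0.95).

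Probes that share sequence with other genes were common among the members with the highest signals. Of the 10 names with the highest signal (Gsta3, Gm5523, Eya1, Gm7784, Gm2383, Gm2393, Rpl5-ps1, Rpl7, Gm7634 and Cops5), 8 were read by a probe that shares 20 or more bases with a probe of another name, and over all members 18 probes did. Gm7784 and Gm2383 are annotated as similar to Gapdh, a glycolytic enzyme found in every cell, and the Gm5523 and Gm7784 probes share bases with a Gapdh probe. The signals of these 3 probes, from 14.68 to 16.38 in all 7 mice, cannot be assigned to the copies in the interval alone. A second Gm5523 probe, starting at 13775879, read from 7.14 to 7.39 in WT and from 6.67 to 7.80 in SHIVA mice. The differences were -0.07 for Gm5523 (SE 0.15), -0.23 for Gm7784 (SE 0.18) and -0.17 for Gm2383 (SE 0.19). The Rpl5-ps1 difference was 0.13 (SE 0.17) and the Gm7634 one 0.03 (SE 0.19).

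Hepatocyte markers were strong in every mouse: all 6 of Alb, Apoa1, Ttr, Serpina1a, Hnf4a and Cps1 were well above background on all arrays, with a mean log2 signal from 16.15 to 16.35 in WT and from 16.17 to 16.32 in SHIVA mice. Arrays correlated with each other at 0.97 to 0.992 over the tested probes. All 4 measured neutrophil markers were higher in SHIVA livers with 0 called. Their mean signal ran from 5.41 to 6.95 in WT and from 5.23 to 8.45 in SHIVA mice. SHIVA mouse 4 read lowest of all 7 mice for S100a8, S100a9 and Ngp (5.25, 7.62 and 1.44), and among the WT values for Camp. Ngp was well above background in 0 WT mice. Both measured red cell markers were higher with 0 called (mean signal 12.45 to 12.95 in WT, 12.90 to 13.65 in SHIVA). The adipose markers were not above background on all arrays.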

How the data were processed

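Liver RNA of 3 WT and 4 SHIVA mice was labelled with Cy3. The authors deposited scanner files with spot intensity made by Agilent Feature Extraction 10.5.1.1, per the labels, and a log2 table that they had quantile normalized. That table keeps the rank order of the mean signal, which was not corrected for background. Here the processed intensity was quantile normalized on the log2 scale, spots marked non-uniform or as population outliers were left out, and spots of a probe were averaged. Probes well above background on 3 or more arrays were fitted with limma 3.58.1 in R 4.3.3 (lmFit and eBayes, two-sided), with Benjamini-Hochberg adjustment over all 26270 probes. Each mouse is 1 sample, and 7 arrays limit the precision. Where no array of a group was well above background, a fold was computed against the higher of each mouse's own reading and its array's lowest signal among probes well above background, and is printed where that floor applied. Positions are those of the deposited annotation (mm9). Names were updated through RefSeq (GRCm38.p6), 105 members by accession and 25 by symbol or synonym, and 35 kept the name in the file. Named were the 15 names with the largest difference, the 10 with the highest signal, the 5 nearest to Sox17 on each side, names whose probes differed by over 1, and up to 4 examples of each role group. Others, such as members never above background, were named after their values were seen. Ly6g and Hbb-b1 were not measured under those names. Alternatives were another scaling, background corrections, the authors' table, filters, 1 value per gene, array weights, a replicate block, leaving out each mouse and the methods' t-test. Keeping marked spots and leaving out repeat probes were added after seeing the data. The steps were tested on simulated data. The members and lists were chosen with earlier results of these data known.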

Additional observations from a re-analysis of the deposited data

Results flagged for a closer look

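Among 32 probes of Sox17 and the named members, 5 were flagged because 1 SHIVA mouse stood apart from the other 3. The measure was Dixon's ratio of the gap to the range of the 4 values, which was 0.85 to 0.97 for these 5. It ignores the size of the gap, which was small for Cops5. Chance would give about 1.6 flags if the probes were independent. They were read in the same 4 mice and many were picked for large differences, so the 2 counts cannot show an excess. The Xkr9 probe read 5.17 in SHIVA mouse 1 and from 4.80 to 4.81 in the others. The Tram2 probe read 7.59 in SHIVA mouse 4 and from 7.16 to 7.20 in the others. The probe of ENSMUST00000027064, a Tmem14a transcript, read 6.96 in SHIVA mouse 2 and from 7.08 to 7.10 in the others. One Rpl7 probe read 14.25 in SHIVA mouse 2 and from 13.87 to 13.91 in the others, and Cops5 read 11.33 in SHIVA mouse 4 and 11.37 in each of the others. Groups of 3 WT mice were not examined in this way.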

How the results depend on the processing

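No member was called with the settings of the report. One member, LOC100046279, was called when arrays were scaled to the 75th percentile (1, beside 0.274% over the array). It was also the 1 called with the filter on all 7 arrays (beside 0.494%). With no background correction (2), normexp correction (2), the authors' table (2), 1 probe per gene name (2) and probes of a name averaged (2), LOC100046279 and ENSMUST00000097824 were called. The share called over the array was then 0.33% to 0.62%, against 0.232%. With array weights (3) Tcf24 was called as well, and 1.84% over the array. Leaving out 1 mouse gave from 0 to 3 calls, the 3 without WT mouse 3 (2.18% over the array), and an unadjusted p gave 12. The count of members without overlap ran from 14 to 25 when 1 mouse was left out, when fewer values need to be apart, against 11 with all. The share over the array then ran from 14.2% to 29.1%, and was 20.9% where the members numbered 25. The median difference ran from -0.08 to 0.06 when 1 mouse was left out and was 0.0887 within 5 Mb of Sox17. The share well above background on all 7 arrays was 43.6%, beside 48.9% elsewhere. No member and 12 probes in all were called with the replicate number as a block, where the median was -0.02. SHIVA mouse 4 has no WT partner and adds nothing to that fit. Deviations of same-numbered mice correlated at -0.05, 0.03 and 0.23. With so few mice these values cannot show whether the numbers pair them.

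Of the alternative values of Sox17 and the named members, 579 kept their direction and side of the threshold. Another 18 kept their direction and passed it, all for the 3 probes above, and 19 uncalled values changed sign. Settings that changed only the filter or the test could not change a direction. Changes of sign were a Rims1 value of 0.21 with all its probes averaged, Gm5523 at 0.0194, 0.0194 and 0.0401 (no background correction, normexp and the authors' table), and Gm7634 at -0.0462, -0.0454, -0.042 and -0.0213 (those and its probes averaged). With 1 mouse left out, differences ran from -0.19 to 0.01 for Gm5523, from -0.44 to 0.20 for Gm2393, from -0.10 to 0.24 for Gm7634, from -0.0193 to 0.93 for Gm7357, from -0.38 to 0.17 for Lypla1 and from -0.32 to 0.0541 for Tcea1. Over the settings, adjusted p ran from 0.0121 to 0.275 for ENSMUST00000097824, from 0.0118 to 0.215 for LOC100046279 and from 0.0187 to 0.8 for Tcf24, whose difference ran from 0.57 to 3.80. The cause was not tested, beyond the spot described for Tcf24. Signal close to background limits the dim members.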
